A study of Mus musculus with 24 samples.

Results

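The ribosomes on the mRNA of Selenop were mapped by ribosome profiling in the liver of mice with a genomic deletion of SECIS2, one of the SECIS elements of its 3′UTR, and in the wild type mice of the same line. The comparison rests on 6 libraries chosen by their labels, 3 of the SECIS2 deletion and 3 of the SECIS2 wild type, out of the 24 samples of the series. A further 5 grouped libraries, 2 of a SECIS1 deletion and 3 of its wild type, shared the estimate of the spread. All mice were C57Bl6 on standard chow, and the labels name no deletion other than that of SECIS2 in these 6 libraries. The labels give neither the age, the zygosity, the number of animals, the deleted bases nor whether each library is a different animal. The spread behind the p-values is therefore the spread between libraries, which may be technical.

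Selenop encodes selenoprotein P, which is made in the liver, secreted into plasma and carries selenium to other organs. It holds several selenocysteines, each encoded by UGA, a codon that otherwise ends translation. A SECIS element is a stem-loop in the 3′UTR of a selenoprotein mRNA that binds SECISBP2 and, with the selenocysteine elongation factor and its tRNA, lets the ribosome read UGA as selenocysteine. Selenop mRNA has a pair of them, and the comparison asks what ribosomes do at the UGA codons when SECIS2 is missing.

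The values are A-site counts, the number of footprints (about 30 nt, made with RNase I) that place the A site of a ribosome, where the next codon is read, on each of the 2096 nucleotides of the mRNA. The start codon was set at nucleotide 155 from the initiation peak at nucleotide 158, and codon 59 (nucleotides 329 to 331) was taken to be UGA1, the first of the selenocysteine codons. Counts of the reading frame ended at codon 378 (nucleotide 1288). Codons 7 to 53 (nucleotides 173 to 313), before UGA1, are called upstream, and all other counts were set against them. Codons 65 to 373 (nucleotides 347 to 1273) are called downstream. The later UGA codons were not located, since no protein or transcript sequence of Selenop was used here. Codons 65 to 218 and 219 to 373, the downstream codons on either side of their midpoint, are called proximal and distal.

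Total counts on the mRNA were 25334, 27231 and 22041 in the SECIS2 deletion libraries, against 40721, 17585 and 31140 in the SECIS2 wild type libraries. Upstream counts were 6082, 6472 and 4379 in the deletion, against 3907, 1897 and 6139 in the wild type. Among upstream counts, 56.8%, 61.7% and 61.1% lay in the first position of the codon in the deletion libraries, against 51.0%, 69.8% and 55.8% in the wild type libraries, which overlap. The tables hold a single mRNA, so the tissue could not be checked against liver markers. Outside nucleotides 1530 to 1703, counts in the 3′UTR were too few to check the deletion itself. The longest 3′UTR stretch without counts in all 3 deletion libraries, nucleotides 1935 to 2019, held 2, 1 and 4 counts in the wild type libraries. Nucleotides 1530 to 1703 were set from the data. They are the run without counts in both SECIS1 deletion libraries around the highest wild type position of the 3′UTR. Where the run ends in those libraries therefore follows from the choice, while its highest position was picked on wild type counts alone. Nucleotides 1645 to 1647, around that position, held 0 and 0 counts in the SECIS1 deletion libraries. They held 13002, 17623 and 9222 counts in the SECIS1 wild type libraries. The stretch held 4056, 4280 and 5894 counts in the SECIS2 deletion libraries.

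Ribosome density after UGA1 was lower in the SECIS2 deletion. Counts per nucleotide downstream, divided by counts per nucleotide upstream, were 0.282, 0.279 and 0.284 in the deletion libraries, against 0.583, 0.585 and 0.494 in the wild type libraries. Every deletion library lay below every wild type library, and the deletion libraries lay close together. The mean was 0.282 ± 0.00269 in the deletion and 0.554 ± 0.0520 in the wild type (SD, n = 3 each), that is 0.509 times the wild type value. The log2 change was -0.98 (SE 0.11, 95% interval -1.23 to -0.72) with an adjusted p of 0.000247 (edgeR quasi-likelihood test with Benjamini-Hochberg adjustment over 18 region tests). In the SECIS1 line the same ratio was 0.385 and 0.404 in the SECIS1 deletion libraries and 0.356, 0.466 and 0.384 in the SECIS1 wild type libraries. The SECIS2 deletion libraries lay below, and the SECIS2 wild type libraries above, all 5 libraries of the other line. The libraries of the lines also carry different number prefixes in the labels, which do not say what these mark, so line and prefix cannot be told apart.

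Density was lower in the deletion both in the proximal and in the distal codons. Proximal density over upstream was 0.357, 0.324 and 0.298 in the deletion, against 0.779, 0.712 and 0.623 in the wild type, without overlap. It changed by -1.11 (log2, SE 0.13; edgeR adjusted p = 0.000247). Distal density over upstream was 0.209, 0.235 and 0.271 in the deletion, against 0.389, 0.459 and 0.366 in the wild type, again without overlap; it changed by -0.77 (log2, SE 0.16; edgeR adjusted p = 0.00381).

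Distal density was also set against proximal density, which asks whether the deficit was the same before and after the midpoint. The ratio was 0.585, 0.725 and 0.910 in the deletion, against 0.499, 0.645 and 0.588 in the wild type. The groups overlapped, and the log2 change of 0.36 (SE 0.19, 95% interval -0.07 to 0.79) was not called (edgeR adjusted p = 0.14). The call depended on the codons compared. With no codons beside the start, UGA1 and the frame end left out, the change was 0.50 and was called (edgeR adjusted p = 0.0408). With the distal codons starting at codon 276, a split added after the data were seen, where density in the SECIS1 deletion steps down against its own wild type, the ratio was 0.583, 0.621 and 0.714 in the SECIS2 deletion, against 0.389, 0.447 and 0.432 in the SECIS2 wild type. The groups then did not overlap, and the ratio changed by 0.60 (log2, SE 0.13; edgeR adjusted p = 0.00273). Without SECIS2 deletion replicate 1, the change at the midpoint split was 0.50 and was called (edgeR adjusted p = 0.0411). Leaving out any other SECIS2 library gave no call. The change was smallest, 0.18, without SECIS2 deletion replicate 3 (edgeR adjusted p = 0.469), the library with the highest ratio. It was also not called with 10 codons left out beside the start, UGA1 and the frame end (0.33) or with the 5 highest positions left out (0.30). Nor was it called with DESeq2 as the test (0.36) or with the replicate number as a block (0.34).

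**Figure D1:**
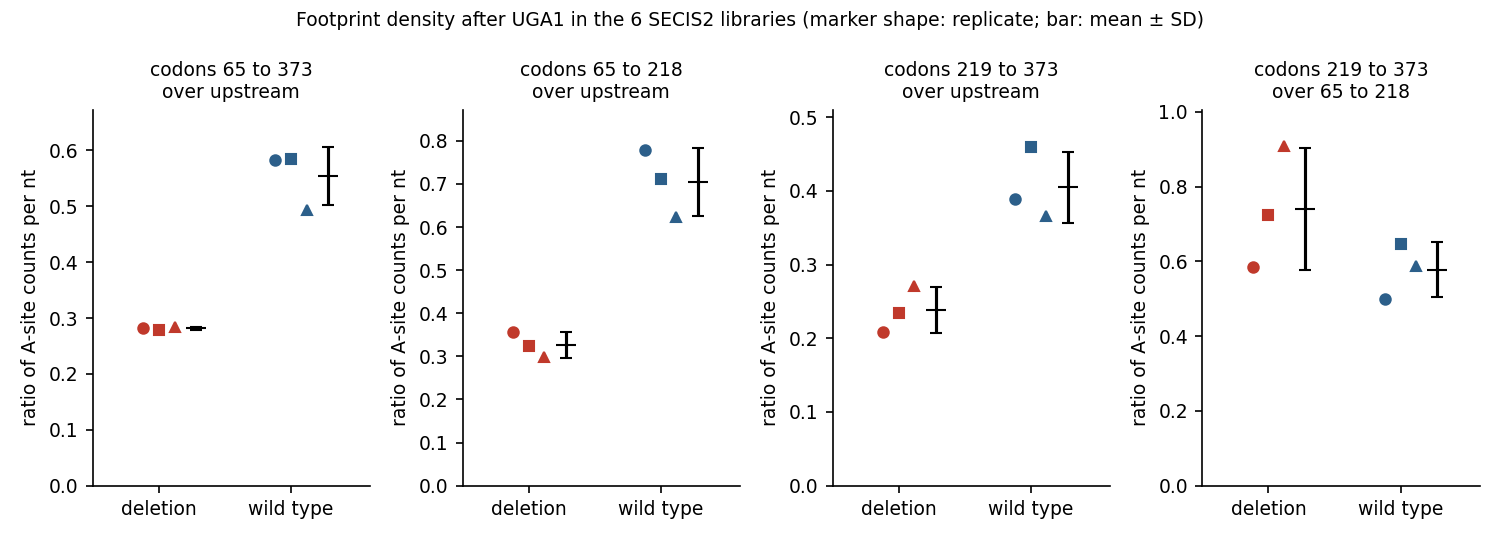
Footprint density after UGA1 in the 6 SECIS2 libraries, as ratios of A-site counts per nucleotide (vertical axes from 0), one marker per library with the mean and SD beside them. The deletion libraries lie below the wild type libraries for the downstream, proximal and distal codons over upstream, and overlap them for distal over proximal.

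Blocks of 60 codons gave the size of the deficit along the reading frame. Mean counts per codon over the mean count per upstream codon, called occupancy, were 0.487, 0.359 and 0.304 for codons 61 to 120 in the deletion, against 1.09, 0.906 and 0.886 in the wild type, 0.398 times the wild type mean. The deletion mean was 0.472 times the wild type mean for codons 121 to 180, 0.484 times for codons 181 to 240 and 0.571 times for codons 241 to 300. At codons 301 to 360 the occupancy was 0.195, 0.169 and 0.184 in the deletion, against 0.231, 0.199 and 0.215 in the wild type, 0.850 times the wild type mean. In these 5 blocks no deletion library reached a wild type library, with an exact two-sided permutation p of 0.1 in each, the smallest that 3 against 3 allow. In the last block, codons 361 to 378, the occupancy was 0.236, 0.190 and 0.257 in the deletion and 0.245, 0.227 and 0.181 in the wild type, and the groups overlapped.

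In windows of 10 codons, all calls in the reading frame lay after UGA1. Of 47 windows with enough counts over the whole mRNA, 23 (48.9%) were called lower and 1 (2.13%) higher in the deletion (edgeR adjusted p under 0.05 over all windows). The 5 windows before UGA1 held no call, but codons 7 to 53 set the scale, so by construction these windows are centred near no change. The window of codons 51 to 60, which holds UGA1, had 267.7, 241.7 and 235.0 counts per 1000 upstream counts in the deletion, against 210.4, 305.2 and 236.2 in the wild type. These overlapped, and its log2 change was -0.01 (SE 0.19). The next window, codons 61 to 70, had 121.3, 69.8 and 73.3 counts per 1000 upstream counts in the deletion, against 364.2, 354.8 and 307.2 in the wild type, with no overlap. It changed by -1.95 (log2, SE 0.26, edgeR adjusted p = 0.000283). In the SECIS1 line the same window had 174.6 and 239.4 in the deletion and 152.1, 202.8 and 136.5 in the wild type. These values lay between those of the SECIS2 groups.

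After UGA1, 23 of 32 windows were lower. Among the 24 windows of codons 61 to 300, 20 were called lower, and the median log2 change over the 24 was -1.11, with a range from -2.15 to -0.54. In 23 of the 47 windows (48.9%), every deletion library lay below every wild type library, and in 2 (4.26%) above. Among the 8 windows of codons 301 to 378, 3 were called lower, with a median of -0.31 and a range from -1.37 to 0.47. The lowest change was at codons 91 to 100, a stretch with few ribosomes in either group, with 3.62, 3.25 and 2.97 counts per 1000 upstream counts in the deletion, against 15.1, 14.2 and 14.5 in the wild type. It changed by -2.15 (log2, SE 0.22; edgeR adjusted p = 5.36e-05). Codons 221 to 230 had 16.9, 17.2 and 20.6 counts per 1000 upstream counts in the deletion, against 83.2, 72.2 and 38.8 in the wild type, without overlap (log2 -1.82, SE 0.29; edgeR adjusted p = 0.000706).

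**Figure D2:**
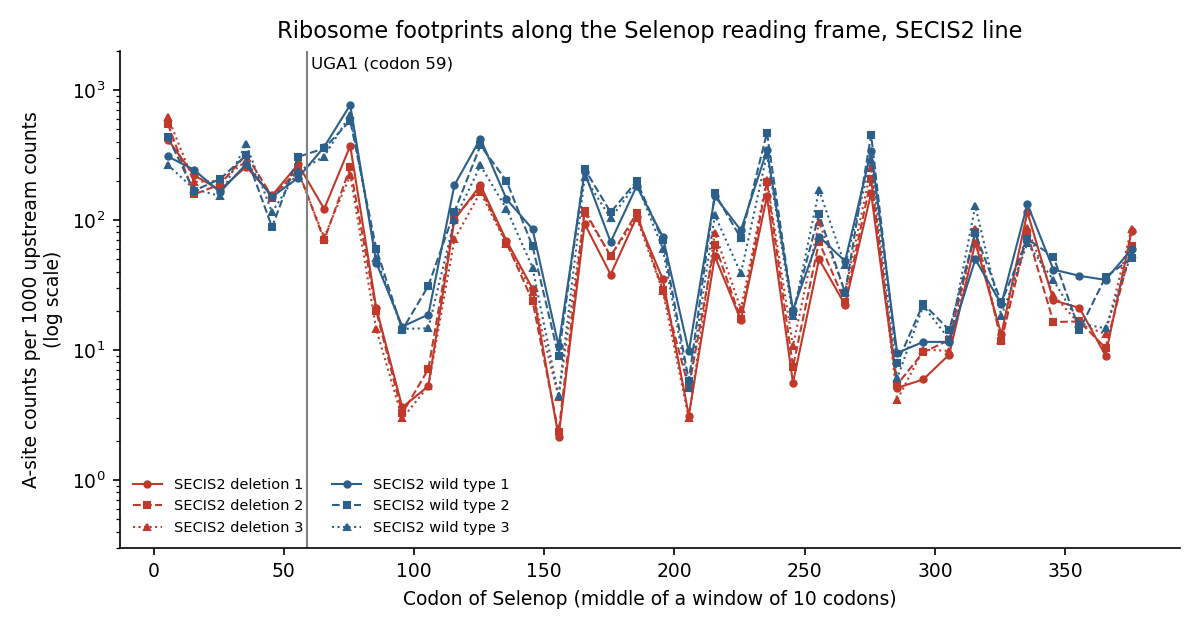
A-site counts per 1000 upstream counts (log scale) in windows of 10 codons along the Selenop reading frame, one line per library. Before UGA1 (grey line) the groups overlap in every window, with the widest spread at codons 1 to 10, the deletion libraries lie lower after it, and the groups lie closer together from about codon 300.

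**Figure D3:**
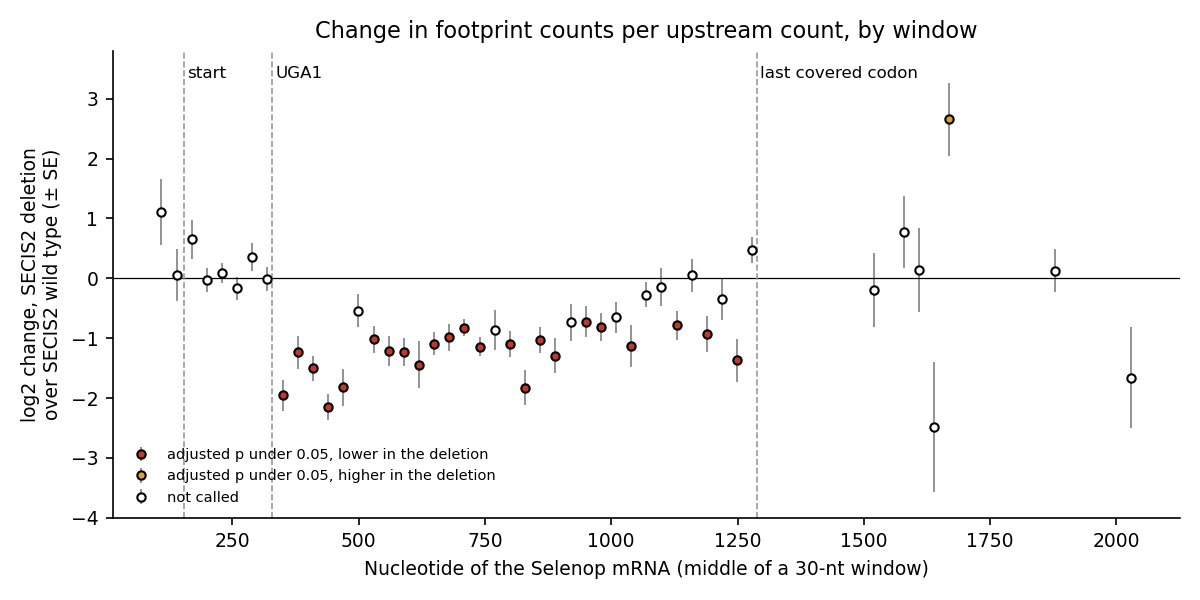
Log2 change of each of 47 windows of 30 nucleotides (SECIS2 deletion over SECIS2 wild type, bars are 1 SE) against its position on the mRNA. Filled points passed an adjusted p of 0.05: 23 lower windows, all after UGA1, and 1 higher window in the 3′UTR.

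These calls rest on upstream counts as the scale. The median change over all windows was -0.81 with it and -0.08 with TMM scaling, which centres on the windows themselves, most of which lie after UGA1. With TMM 5 windows were lower and 10 higher, and the window of codons 51 to 60 was then called higher (0.73, edgeR adjusted p = 0.0212). Codons 61 to 70 stayed lower, at -1.20 (edgeR adjusted p = 0.00386). Under TMM, DESeq2 size factors and all counts on the mRNA as scale, codons 61 to 70, 91 to 100 and 221 to 230 were each called lower. They had been picked as the lowest called windows with upstream counts as scale, so they were the likeliest to stay lower. With all counts on the mRNA as scale, of which the 3′UTR stretch described further on held 16.0%, 15.7% and 26.7% in the deletion libraries and 47.6%, 39.0% and 4.81% in the wild type libraries, the downstream change was -0.18, the proximal change -0.31 and the distal change 0.0057, none of them called.

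The authors' ratio gives footprints per mRNA without the upstream counts: the counts over all mapped footprints, divided by the library's Selenop RNA-seq reads over all mapped RNA reads. Summed over the upstream codons it was 0.0529, 0.0488 and 0.0549 in the deletion, against 0.0489, 0.0491 and 0.0478 in the wild type. The groups overlapped, with a log2 difference of 0.10 (exact two-sided permutation p = 0.3). Summed over the downstream codons it was 0.0982, 0.0896 and 0.103 in the deletion, against 0.187, 0.189 and 0.155 in the wild type. These did not overlap, and the log2 difference was -0.87 (exact permutation p = 0.1, the smallest possible). The proximal difference was -1.01 and the distal difference -0.67, both with the same p and without overlap. Over the whole reading frame the ratio was 0.184, 0.172 and 0.201 in the deletion, against 0.266, 0.276 and 0.230 in the wild type, a log2 difference of -0.47 with no overlap (exact permutation p = 0.1).

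**Figure D4:**
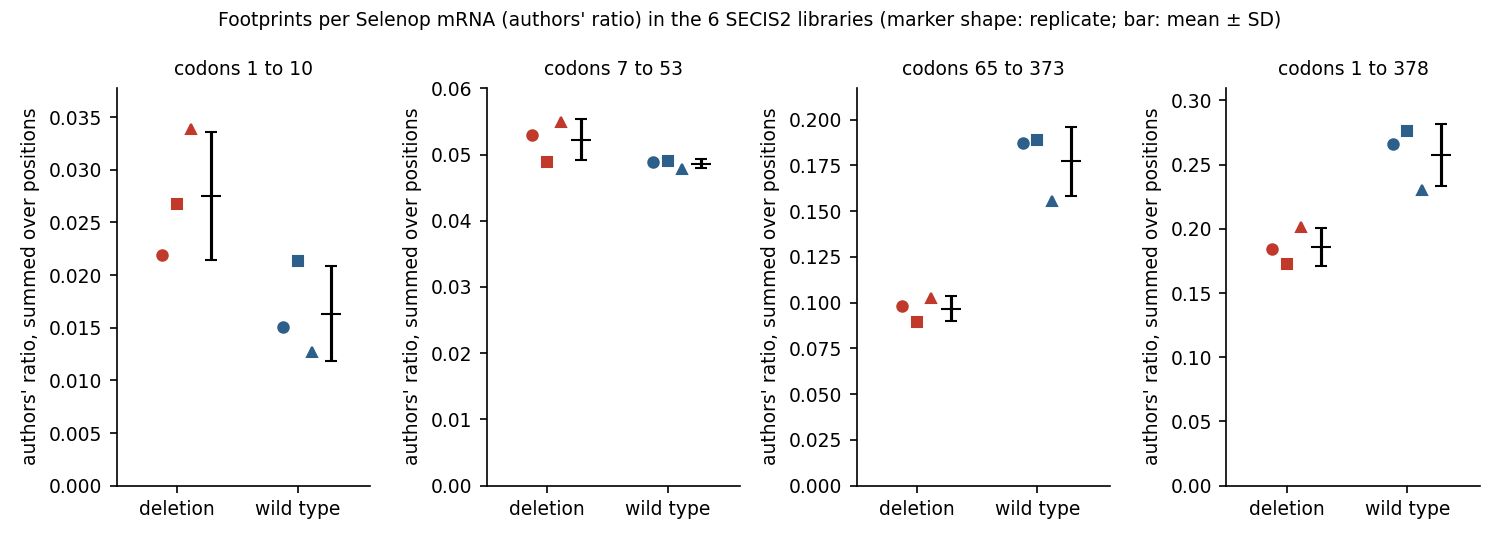
The authors' ratio (footprints per Selenop mRNA) summed over 4 stretches of codons in the 6 SECIS2 libraries, one marker per library with mean and SD, vertical axes from 0. The groups overlap for codons 7 to 53, the deletion libraries lie lower for codons 65 to 373 and for the whole frame, and higher for codons 1 to 10.

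At the start of the reading frame the deletion libraries were on the high side. The 5′UTR held few counts, 8.88, 7.57 and 9.59 per 1000 upstream counts in the deletion, against 6.65, 9.49 and 3.75 in the wild type, with overlap. Codon 2, the initiation peak, held 1737, 2656 and 2001 counts in the deletion, against 774, 667 and 1129 in the wild type, an occupancy of 13.4, 19.3 and 21.5 in the deletion and 9.31, 16.5 and 8.64 in the wild type. The occupancies overlapped (exact permutation p = 0.2), and the log2 change of 0.66 (SE 0.40) was not called (edgeR adjusted p = 0.191). With the replicate number as a block it was 0.69 and was called (edgeR adjusted p = 0.0477). Codons 3 to 6 had an occupancy of 1.01, 1.33 and 1.69 in the deletion, against 0.565, 0.706 and 0.846 in the wild type. These did not overlap, with a log2 difference of 0.92 (exact permutation p = 0.1). In the SECIS1 line it was 0.987 and 0.876 in the SECIS1 deletion, against 0.473, 0.558 and 0.503 in its wild type. Those groups did not overlap either, so higher values at codons 3 to 6 were not particular to the SECIS2 deletion. On the authors' ratio, which does not use the upstream counts, codons 1 to 10 held 0.0219, 0.0267 and 0.0339 in the deletion, against 0.0150, 0.0213 and 0.0127 in the wild type. Here again the groups did not overlap, and the log2 difference was 0.76 (exact permutation p = 0.1). In the SECIS1 line this ratio was 0.0255 and 0.0294 in the deletion, against 0.0131, 0.0183 and 0.0289 in the wild type, with overlap. The edgeR window of codons 1 to 10 had a log2 change of 0.65 (SE 0.32) and was not called in the fit over the whole mRNA (adjusted p = 0.109). In a fit of the reading frame alone, added after the data were seen, it was the 1 higher window of 38 (2.63%; edgeR adjusted p = 0.0435), beside 26 lower ones (68.4%).

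At UGA1 itself no difference was detected. Codon 59 held 44, 44 and 36 counts in the deletion, against 36, 15 and 47 in the wild type. Its occupancy was 0.340, 0.320 and 0.386 in the deletion and 0.433, 0.372 and 0.360 in the wild type, with overlap (exact permutation p = 0.3). The estimate of its change was -0.16 (log2, SE 0.32, edgeR adjusted p = 0.71; 95% interval -0.84 to 0.52), an interval that holds changes in either direction. With codons 58 and 60 included the occupancy was 0.307, 0.240 and 0.211 in the deletion, against 0.317, 0.504 and 0.406 in the wild type, without overlap (log2 difference -0.69, exact permutation p = 0.1). The 5 codons before UGA1, codons 54 to 58, had an occupancy of 0.842, 0.585 and 0.597 in the deletion and 0.565, 0.634 and 0.395 in the wild type, which also overlapped.

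Directly after UGA1 the libraries separated. Codons 60 to 64 had an occupancy of 0.609, 0.370 and 0.374 in the deletion, against 1.96, 2.30 and 1.98 in the wild type, a log2 difference of -2.24 without overlap (exact permutation p = 0.1). Most of these counts lay at codon 63, with 277, 150 and 100 counts in the deletion, against 637, 289 and 972 in the wild type. Its occupancy was 2.14, 1.09 and 1.07 in the deletion, against 7.66, 7.16 and 7.44 in the wild type, and it changed by -2.37 (log2, SE 0.37; edgeR adjusted p = 0.000613). At this codon the SECIS2 wild type libraries stood apart from all others: the occupancy was 1.63 and 2.40 in the SECIS1 deletion libraries and 0.852, 1.86 and 1.21 in the SECIS1 wild type libraries. Codon 74, with the most counts of the reading frame after UGA1 in every SECIS2 library, had an occupancy of 9.95, 6.69 and 6.68 in the deletion, against 21.4, 14.0 and 14.3 in the wild type, and changed by -1.09 (log2, SE 0.30; edgeR adjusted p = 0.0125). Codons 63 and 74 were picked after their values were seen.

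Codon by codon, 95 of 258 tested codons were lower (36.8%) and 3 were higher (1.16%) in the deletion (edgeR adjusted p under 0.05), out of 378 codons. Before UGA1, 1 of 52 tested codons was lower, codon 12 at -1.27, and 3 were higher. Codon 12, one of the upstream codons that set the scale, overlapped between the groups. Its occupancy was 0.78, 0.41 and 0.67 in the deletion, against 2.01, 1.81 and 0.71 in the wild type. From codon 60 to 218, 67 of 115 were lower, with a median log2 change of -1.25, and from codon 219 on, 27 of 90 were lower, with a median of -0.84. No tested codon after UGA1 was called higher. Every deletion library lay below every wild type library at 97 codons (37.6%) and above at 7 (2.71%). The 3 higher codons were codon 6 (1.41), codon 3 (1.17) and codon 49 (1.12), and the count of higher codons was 8 with the replicate block. Each of the 3 lost its call when SECIS2 deletion replicate 2 or SECIS2 wild type replicate 2 was left out, and codon 6 was at 2.27 without SECIS2 wild type replicate 3. Codon 49 held 179, 290 and 163 counts in the deletion, against 59, 26 and 133 in the wild type.

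The 5 lowest codons were sparsely covered in the deletion. Codon 180 held 0, 3 and 0 counts in the deletion, against 12, 4 and 5 in the wild type (log2 change -3.29, SE 1.10). Codon 108 held 1, 3 and 1 counts in the deletion, against 9, 7 and 20 in the wild type (-3.28, SE 0.56, edgeR adjusted p = 0.00122). Codon 241 held 2, 1 and 1 counts in the deletion, against 15, 6 and 2 in the wild type (-3.11, SE 0.89). Counts this low leave wide errors, and codon 180 lost its call without SECIS2 deletion replicate 1 or 3, and codon 241 without replicate 2. Without deletion replicate 2, which held all 3 deletion counts at codon 180, the fitted change there was -6.53, against a group at 0, and is no estimate of a fold. Codon 96 held 5, 4 and 0 counts in the deletion, against 19, 6 and 17 in the wild type (-2.74, SE 0.64). Codon 230, the best covered of the 5, held 13, 17 and 11 counts in the deletion, against 112, 26 and 34 in the wild type (-2.70, SE 0.53, edgeR adjusted p = 0.00321).

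The number of called codons depended on single libraries. Without SECIS2 deletion replicate 1, 59 of 255 tested codons were lower. Without SECIS2 deletion replicate 2, 49 of 254 were lower and none was higher at an adjusted p of 0.05 in edgeR. In that fit 6 were higher at an unadjusted p under 0.05. Without SECIS2 wild type replicate 3, 7 of 251 tested codons were higher. With TMM scaling 7 codons were lower and 20 higher, and the median codon change moved to -0.03, against -0.90 with upstream counts.

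Codons with many footprints in one group tended to have many in the other. Across 81 proximal codons with a mean of at least 10 counts, the correlation of log2 occupancy (0.5 counts added) between a deletion and a wild type library had a median of 0.848 over 9 pairs, against 0.818 over the 3 pairs of wild type libraries. Across 64 distal codons the medians were 0.782 and 0.783, and across 36 upstream codons 0.841 and 0.778. The 3 pairs of deletion libraries were more alike, with medians of 0.921 over the proximal, 0.928 over the distal and 0.937 over the upstream codons. These are descriptions across codons of one mRNA, which are not independent replicates.

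The last codons of the frame lay higher in the SECIS2 deletion than in its own wild type. Codons 374 to 378 had an occupancy of 0.742, 0.565 and 0.749 in the deletion, against 0.510, 0.441 and 0.487 in the wild type. All deletion libraries were higher here, by 0.51 on the log2 scale (exact permutation p = 0.1). In the SECIS1 line the occupancy was 0.530, 0.783 and 0.932 in the wild type, a range that holds the SECIS2 deletion values. It was 0.0096 and 0.0053 in the SECIS1 deletion. The window of codons 371 to 378 had a log2 change of 0.47 (SE 0.23) and was not called (edgeR adjusted p = 0.0979). In the window before it, codons 361 to 370, the deletion had 9.04, 10.4 and 13.3 counts per 1000 upstream counts, against 34.6, 36.4 and 14.7 in the wild type (log2 change -1.37 with SE 0.36; edgeR adjusted p = 0.00781).

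In the 3′UTR nearly all counts lay in nucleotides 1530 to 1703, and their amount overlapped between the groups. This stretch held 667, 661 and 1346 counts per 1000 upstream counts in the deletion, against 4963, 3619 and 244 in the wild type. Wild type replicate 3 was the lowest and wild type replicate 1 the highest of the 6, so the groups overlapped (log2 difference -0.96, exact permutation p = 0.6). The change over the whole 3′UTR was -1.71 (SE 0.89) and was not called (edgeR adjusted p = 0.14). Without wild type replicate 3 it was -2.25 and was called (edgeR adjusted p = 0.00195), and without its 5 highest positions it was 0.22 and not called. Between the frame end and this stretch there were 6.41, 6.49 and 7.99 counts per 1000 upstream counts in the deletion, against 10.5, 3.16 and 2.28 in the wild type, with overlap. After the stretch there were 7.73, 2.78 and 5.94 in the deletion, against 8.70, 5.27 and 4.56 in the wild type, also with overlap.

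Within the stretch the counts fell on a few positions, in proportions that differed between libraries. Nucleotides 1645 to 1647, around the highest wild type position, held 260, 1646 and 4145 counts in the deletion, against 17844, 5696 and 894 in the wild type. Nucleotides 1656 to 1658 held 2534, 1363 and 417 counts in the deletion, against 117, 34 and 295 in the wild type. Further upstream, nucleotides 1593 and 1594 held 489, 764 and 598 counts in the deletion, against 403, 150 and 86 in the wild type. The share of the stretch's counts at nucleotides 1656 to 1658 was 62.5% (95% interval 61.0 to 64.0), 31.8% (30.5 to 33.3) and 7.08% (6.43 to 7.76) in the deletion, against 0.603% (0.499 to 0.723), 0.495% (0.343 to 0.691) and 19.7% (17.7 to 21.8) in the wild type. The deletion libraries spread over a wide range, and wild type replicate 3 lay inside it. These positions were chosen after their values were seen and were not tested, and the intervals (exact Clopper-Pearson) cover counting error only. The window of nucleotides 1655 to 1684, which holds nucleotides 1656 to 1658, was the 1 window called higher. It had 457.7, 233.0 and 114.9 counts per 1000 upstream counts in the deletion, against 47.1, 25.3 and 54.1 in the wild type. Its log2 change was 2.65 (SE 0.61, edgeR adjusted p = 0.00457). The border with the window before it, nucleotides 1625 to 1654, runs through one cluster of counts. That window, which holds nucleotides 1645 to 1647, changed by -2.49 (SE 1.09) and was not called (edgeR adjusted p = 0.0774).

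**Figure D5:**
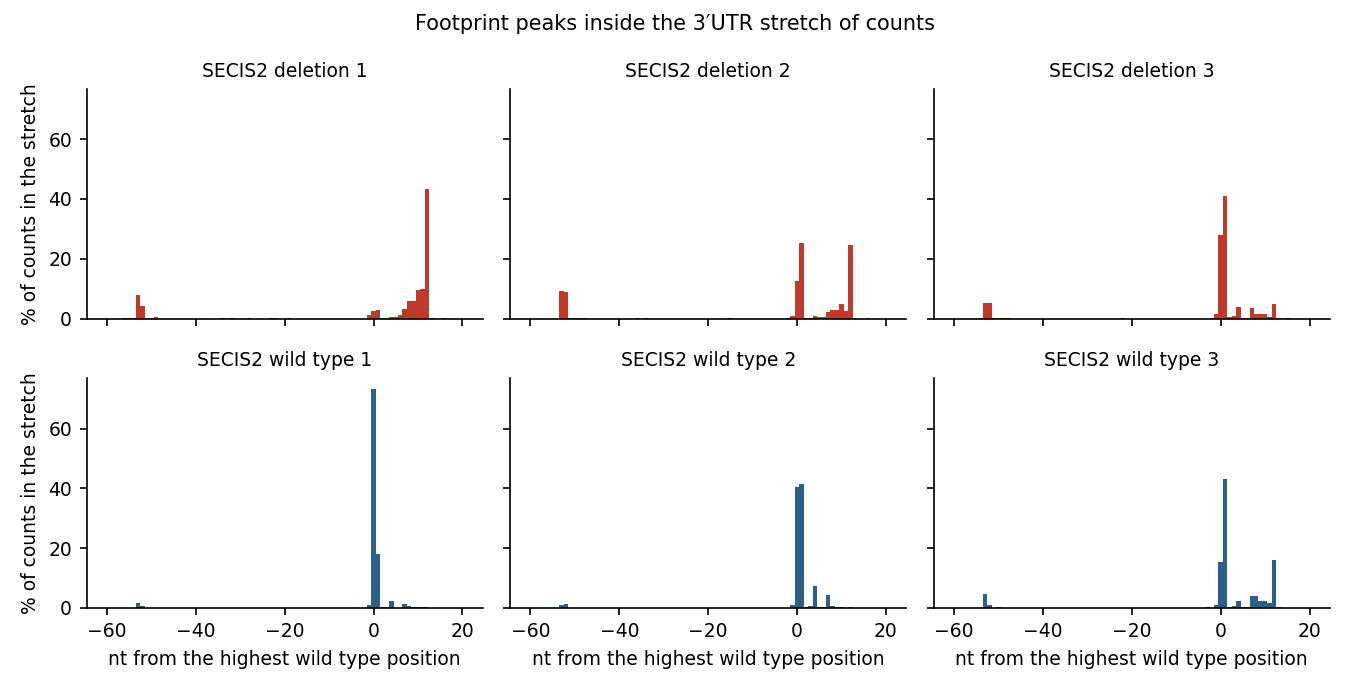
Share of the counts of the 3′UTR stretch at each nucleotide, by distance from the highest wild type position, with deletion libraries above wild type libraries. The peak at 12 nucleotides is high in deletion replicates 1 and 2 and also present in wild type replicate 3.

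The effect of the SECIS2 deletion differed from that of the SECIS1 deletion, each set against its own wild type. The downstream change was -0.98 for SECIS2 and -0.03 (SE 0.12) for SECIS1, a difference of -0.95 (SE 0.16, edgeR adjusted p = 0.0014). The proximal change was -1.11 for SECIS2 and 0.23 (SE 0.15) for SECIS1, a difference of -1.34 (SE 0.20, edgeR adjusted p = 0.000712). The distal changes, -0.77 for SECIS2 and -0.74 (SE 0.18) for SECIS1, differed by -0.03 (SE 0.24, 95% interval -0.57 to 0.52, edgeR adjusted p = 0.918). With all counts on the mRNA as scale the downstream difference was -0.73 and not called (edgeR adjusted p = 0.103). Distal over proximal density had changes of 0.36 for SECIS2 and -0.98 (SE 0.22) for SECIS1, a difference of 1.33 (SE 0.29, edgeR adjusted p = 0.00389). By position, the effects differed in 29 of 47 windows. In 17 windows (36.2%), all between codons 61 and 250, the SECIS2 effect was the more negative, and in 12 (25.5%), of which 8 were the windows of codons 301 to 378 and 4 lay in the 3′UTR, it was the more positive. Of 258 codons, the SECIS2 effect was the more negative at 51 (19.8%) and the more positive at 30 (11.6%). Without SECIS1 deletion replicate 2 these numbers were 18 and 14 of 286 tested codons. Without SECIS1 deletion replicate 3 they were 20 and 18 of 287. Leaving out SECIS2 deletion replicate 1, 2 or 3 gave 33, 27 and 33 more negative codons, of 255, 254 and 257 tested.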

How the data were processed

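Ribosome footprints were made from mouse liver with RNase I, per the labels' protocols. Reads were aligned with Bowtie to the mm9 build, per the submitters' processing notes. Bowtie's version and the rule that placed the A site are not given in the sources used here. The authors deposited A-site counts per nucleotide of the Selenop mRNA and, per the file headers, a ratio of these counts, scaled to all mapped footprints, to the Selenop RNA-seq reads, scaled likewise to mapped RNA. In each library it is the count times a constant. RNA-seq entered only through it. The 11 grouped libraries were used, and 1 column whose sample title names no group was left out.

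Regions, windows of 10 codons and codons were tested on counts with the quasi-likelihood test of edgeR 4.0.16 (R 4.3.3; upstream counts as library size, 4 groups, filterByExpr for windows and codons, Benjamini-Hochberg adjustment over 18 region tests, 47 windows or 258 codons). Log2 changes are deletion over wild type. For single values the test was an exact two-sided permutation test, with 0.1 as the smallest possible p for 3 against 3. Over the 39 such tests, 20 of them at 0.1, the smallest adjusted p (Benjamini-Hochberg) was 0.195. In regions, 5 codons beside the start, UGA1 and the frame end were left out. The frame end is the last codon before a run of 20 codons under 1% of the mean upstream count per codon. Named codons are the initiation peak, UGA1 and the 5 highest and 5 lowest called changes, named windows those beside UGA1 and the 3 highest and 3 lowest called, and any other codon or window given was picked after its values were seen. The regions, codons and comparisons were chosen with earlier results of these data known. Tests were tried on simulated data first.

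Over 202 codons, deviations from the group mean correlated at 0.489, 0.201 and 0.181 between same-numbered deletion and wild type libraries. All were above 0.1, so a replicate block was also fitted, the pairing coming from the replicate numbers in the titles. Differently numbered pairs ran from -0.309 to 0.164. Deletion 2 with wild type 3 (0.164) and deletion 3 with wild type 2 (0.134) were also above 0.1, so only replicate 1 stood apart. Deviations from a group mean are tied to each other, so these correlations are not independent. Other alternatives were DESeq2 1.42.0, TMM and DESeq2 size factors, all counts as library size, other margins, windows and splits, only the SECIS2 groups, the 5 highest positions left out, no filter and each library left out. Replicates of a group were not the same library deposited again (chi-square per degree of freedom 2.38 to 18.5). Upstream counts of 1897 to 6472 per library limit the precision of every ratio.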

Additional observations from a re-analysis of the deposited data

Results flagged for a closer look

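The SECIS2 and SECIS1 deletions changed ribosome density differently, each against its own wild type, by an edgeR test of the difference with Benjamini-Hochberg adjustment. The difference was -0.95 on the log2 scale for the downstream codons (adjusted p = 0.0014), with all 3 SECIS2 deletion libraries below their wild type. It was -1.34 for the proximal codons (adjusted p = 0.000712). For distal over proximal density it was 1.33 (adjusted p = 0.00389). For the 3′UTR it was 6.64 (SE 1.51, adjusted p = 0.00429). This fit used the whole 3′UTR, nucleotides 1289 to 2096. It held 23 and 44 counts in the SECIS1 deletion libraries, against 16762, 21201 and 10797 in the SECIS1 wild type libraries. With so few counts in the SECIS1 deletion, the size of the difference is a poor estimate of a fold. With the replicate block the 3′UTR difference was 7.33 and fell short of the threshold (adjusted p = 0.0535). The effects differed in 29 of 47 windows and in 81 of 258 codons. All 30 codons where the SECIS2 effect was the more positive lay from codon 219 on.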

How the results depend on the processing

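The choice of scale moved many results. With the library's whole count on the mRNA as scale, which includes the 3′UTR stretch, the downstream change was -0.18, the proximal -0.31 and the distal 0.0057, none called, and the 5′UTR 1.33 (edgeR adjusted p = 0.0105), while the differences between deletions were -0.73 downstream and 0.17 distal. The value for codons 51 to 60 was then 0.76 (0.73 with TMM, 0.74 with DESeq2 size factors, 0.0013 with the replicate block) and for codon 59 0.61 (0.71 with TMM, 0.64 with DESeq2 size factors). With TMM, DESeq2 size factors and all counts, lower windows numbered 5, 5 and 4 and higher windows 10, 10 and 8. Of 258, 258 and 239 tested codons, 7, 7 and 4 were lower and 20, 16 and 9 higher (5 with DESeq2 as the test, 8 with the replicate block). For the difference between deletions, lower windows numbered 7 with TMM and 9 with DESeq2 size factors, and lower codons 6, 9 and 14 with TMM, DESeq2 size factors and all counts. On the authors' ratio the changes of -0.87, -1.01 and -0.67 had the smallest exact permutation p that 3 against 3 allow, 0.1. Of 83 tested windows of 5 codons, 39 were lower and 2 higher, and 29 were lower and 21 higher for the difference. Of 26 tested windows of 20 codons, 12 were lower, and 8 were lower and 7 higher for the difference. These counts are to be read against their own numbers tested, not against the 47 windows of 10 codons. With the 5 highest positions left out, the 5′UTR value was -0.41, the 3′UTR value 0.22 and that of its stretch 0.60. Distal over proximal was 0.50 with no codons left out and 0.60 from the SECIS1 step, both called, but 0.33 and not called with 10 codons left out. The distal difference between deletions was 0.11 with the replicate block, 0.019 with no codons left out and 1.81 from the SECIS1 step, a split set on the SECIS1 values themselves, so that its size follows from the choice. The 3′UTR difference was 7.33 with the replicate block and not called. With the block 19 windows and 104 codons were lower, and for the difference 16 windows lower and 10 higher and 48 codons lower and 30 higher. Among the regions and the named codons and windows it changed no call other than those of codon 2 and of the 3′UTR difference. The cause of these changes was not tested.

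Leaving out each library in turn gave -2.25 to -1.10 for the 3′UTR, 0.18 to 0.50 for distal over proximal, -0.13 to 0.11 for the distal difference between deletions, -0.12 to 0.15 for codons 51 to 60, and -0.55 to 0.19 after the 3′UTR stretch. Shares of counts in the first codon position differed by -2.92 to 6.48 percentage points upstream and by -2.94 to 4.14 downstream. Higher windows numbered 1 to 2 (2 without SECIS2 wild type replicate 1), lower codons 49 to 107 and higher codons 0 to 7. For the difference between deletions 18 to 71 codons were lower and 14 to 33 higher. The codons tested in these fits numbered 250 to 287. The downstream change stayed between -1.05 and -0.93 and the proximal between -1.19 and -1.03, all called.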
